A study of Mus musculus with 9 samples.

Results

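The comparison described here sets 3 libraries of mouse marrow cells that carried the fusion KAT6A-NCOA2 against 3 libraries of cells that carried the empty vector. Its members are the genes that reached 10 in 3 or more of the 9 libraries of the series, and these are 13750 of the 17266 genes in the table. The series is about the fusion ETV6-NCOA2 in an acute leukemia of mixed T and myeloid phenotype, and it also holds 3 libraries with that fusion. The cells were lineage-negative bone marrow from untreated female C57B/6 mice 6 weeks old. They were infected with a retrovirus made from MigR1-IRES-GFP, either empty or carrying KAT6A-NCOA2. All groups then grew for 5 days in RPMI with IL-3, IL-6 and SCF, were sorted for GFP and gave polyadenylated RNA for bulk sequencing. The virus drives the fusion in every infected cell type, outside the normal control of either partner gene. No label ties a replicate to an animal, an infection or a culture dish, so each p-value below measures the spread between libraries and this spread may be technical. Values of replicates 1, 2 and 3 are given in that order, with the empty vector first.

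KAT6A is a histone acetyltransferase that works in a complex with BRPF proteins and is needed by blood stem cells. NCOA2 is a coactivator that nuclear receptors bring to their target genes, and its C-terminal part binds the acetyltransferases CBP and p300. Fusions of KAT6A with NCOA2 or with CBP occur in acute myeloid leukemia, and in mice they have been used to turn committed myeloid progenitors into cells that renew themselves. The question of the comparison is which genes and functions differ after 5 days between cells with this fusion and cells with the vector alone.

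Reads recovered from the deposited values came to between 17.1 and 20.4 M per library in these 6 libraries. The 10 most abundant genes took 11.1%, 13.1% and 11.7% of the reads with empty vector and 15.5%, 16.2% and 16.1% with KAT6A-NCOA2. On the first principal component, which held 51.2% of the variance, empty vector replicate 2 (-14.4) lay closer to the lowest KAT6A-NCOA2 library (20.7) than to empty vector replicate 1 (-52). Genes of monocytes and macrophages were abundant in all 6 libraries, and the summed level of 14 of their markers was 352752, 335590 and 339523 normalized counts against 372729, 325055 and 364816. The summed level of 12 mast cell and basophil markers was 125401, 65794 and 76548 against 28549, 13237 and 10720, and 10 of the 12 fell, where 13.7% of all tested genes fell and 11.6% rose at an adjusted p below 0.05. Of 12 tested neutrophil markers 11 fell and Mmp8 rose, a call lost without KAT6A-NCOA2 replicates 2 or 3 (adjusted p from 0.052 to 0.057). With Mmp8 the most abundant of them, their summed level was 35997, 49694 and 44148 against 50576, 57327 and 54340. Of 13 progenitor markers 5 fell (Kit, Myb, Gata2, Cd27 and Mecom) and 1 rose (Procr). Cd27 and Mecom were low, with KAT6A-NCOA2 means of 12 and 8.06. The others, including Cd34, Ly6a, Cd48 and Meis1 (adjusted p from 0.23 to 0.62), did not pass the test. The summed level of the megakaryocyte markers was 62118, 48110 and 75039 against 107348, 81195 and 73284. The groups overlapped in this sum and none of these markers passed the test, while 3 rose with DESeq2 and 5 with only the 6 libraries. The summed level of 9 erythroid markers was 1204, 890 and 1855 against 538, 465 and 385, and of 8 tested 5 fell and none rose, in the fits without 1 library as well. Of the stromal and endothelial markers Col3a1, Dcn, Lum and Pdgfra stayed under 10 normalized counts in all 6 libraries, while of 8 tested Vwf rose and Pdgfrb, Col1a2 and Pecam1 fell. Of the lymphoid markers Cd3g, Cd79a and Klrb1c stayed under 10, while of 6 tested Il7r rose and Thy1 and Cd4 fell. Of 12 tested genes of RNA quality and stress Atf3, Jun and Dusp1 rose and Egr1 fell, and no mitochondrial transcript was called. The lymphoid count that fell was 1 without empty vector replicate 3 or KAT6A-NCOA2 replicate 2, and no stress gene fell without KAT6A-NCOA2 replicate 2. Marker genes outside the naming rule were chosen after their values were seen. In bulk RNA a lower value can mean fewer cells of a type or less RNA per cell, and the difference between these cannot be told apart here.

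The mouse genes of the fusion partners did not pass the test, and it is not known whether reads of the human or mouse fusion transcript count toward them, so they check no label. Kat6a, on chromosome 8 (22859535 to 22943259, GRCm38), stood at 1517, 1398 and 1373 normalized counts against 1325, 1398 and 1538. Ncoa2, on chromosome 1 (13139105 to 13374083), stood at 1331, 1384 and 1255 against 1367, 1263 and 1421. The groups overlapped for both genes. Etv6, a transcriptional repressor of blood cells and the partner in the other fusion, fell by 0.54 on the log2 scale (SE 0.10, adjusted p = 0.0039).

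Of the 13750 genes, 3488 (25.4%) changed, with 1599 higher (11.6%) and 1889 lower (13.7%) at an adjusted p below 0.05. Each list count below is to be read beside these shares, and a count near them does not set a list apart from all genes. Among these called genes falls were larger than rises, with a median size of 0.72 against 0.48 on the log2 scale. At 2-fold or more, 190 genes rose (1.38%) and 676 fell (4.92%). Without overlap between the groups, 2914 tested genes were higher (21.2%) and 2985 lower (21.7%), called or not. The naming rule took list members without overlap, so for genes picked in that way a lack of overlap below follows from the choice. When each library was scaled by its total of reads instead, the median over all genes moved from 0.02 to -0.17, and 666 genes were higher (4.84%) and 4059 lower (29.5%). The changed genes were then 14.1% higher, against 45.8% on the authors' scale, so that small rises below depend on the scale. The count of changed genes was 1779, 4320 and 2298 when empty vector replicates 1, 2 and 3 were each left out, and 3130, 1866 and 1887 for the KAT6A-NCOA2 replicates. Among 300 changed genes picked by the naming rule, 202 kept the call whichever of the 6 libraries was left out, and none changed sign in any of these fits. The rule picked them from the same libraries, mostly for large changes without overlap, so this share does not describe all 3488 changed genes. Calls among the 300 were lost most often without empty vector replicates 1 (87) and 3 (62) and KAT6A-NCOA2 replicates 2 (89) and 3 (83). Where counts are given without these 4 libraries, each was left out alone and the counts follow this order.

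Of 25 genes for coactivators and for the complexes of the partners, Ncoa1 and Brpf1 rose and Prmt1, Etv6, Kat2a, Carm1 and Hdac3 fell, where Carm1 and Hdac3 were chosen after their values were seen. Prmt1, an arginine methyltransferase, stood at 1168, 953 and 993 against 773, 665 and 609 (log2 fold change -0.61, SE 0.10, adjusted p = 0.0026). Without empty vector replicates 1 or 3 or KAT6A-NCOA2 replicates 2 or 3 no member rose and 2, 3, 2 and 2 fell, and with total-read scaling no member rose and 8 fell. Ncoa1 and Brpf1 lost the call without any 1 of these 4 libraries (adjusted p from 0.053 to 0.14), and Kat2a without empty vector replicate 1 or KAT6A-NCOA2 replicates 2 or 3 (0.057 to 0.066).

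The plot of list members by fold change sets the lists of risen functions above those of fallen ones.

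**Figure D1:**
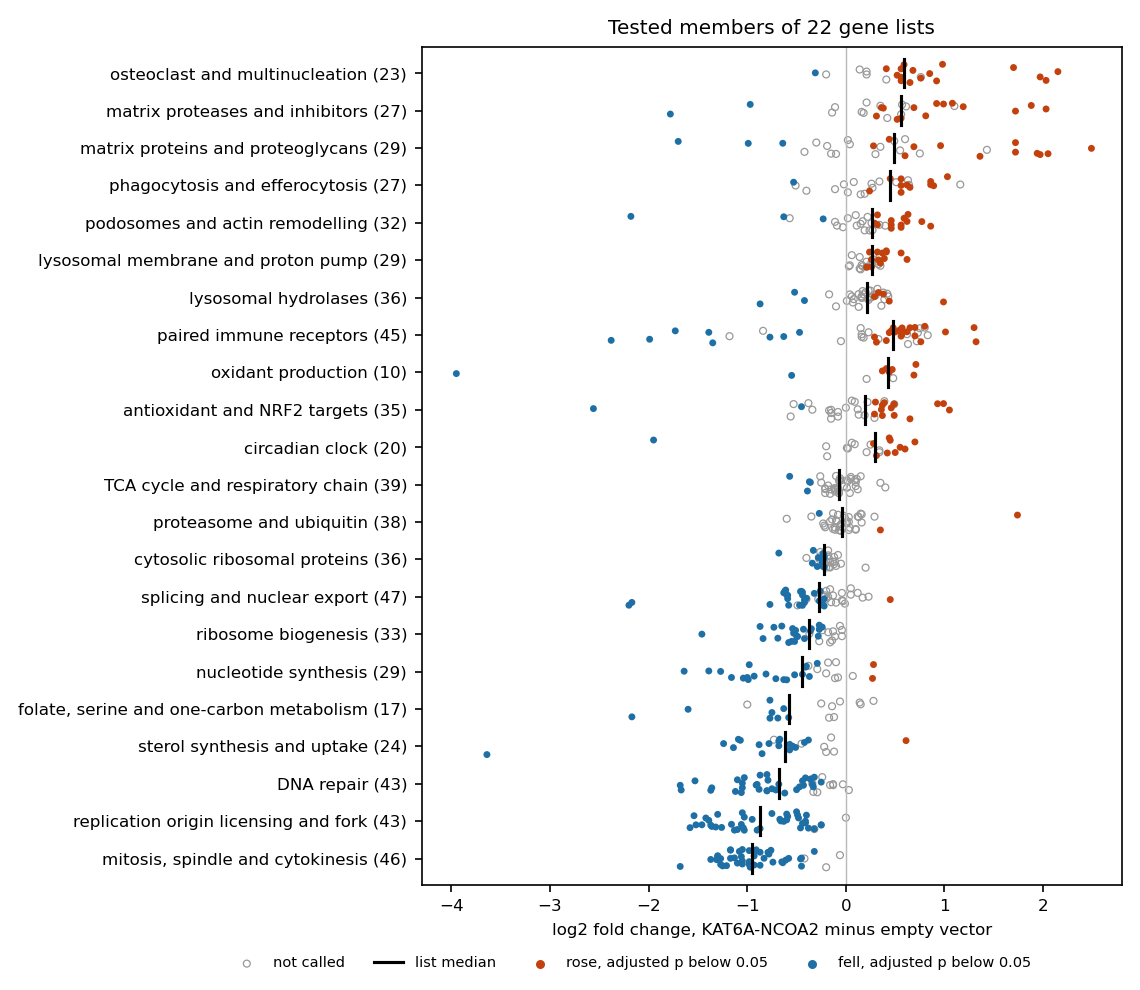
Log2 fold change (x axis, KAT6A-NCOA2 minus empty vector) of each tested member of 22 gene lists (y axis, number tested in brackets). Filled points passed the test and black bars are list medians, which run from 0.59 for osteoclast and multinucleation genes to -0.96 for mitosis genes.

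The mean level of each list in each library shows how far single libraries carry these differences. For the osteoclast list the 3 KAT6A-NCOA2 libraries lay between 0.66 and 0.82 above the empty vector mean on the log2 scale, and empty vector replicate 2 lay at 0.25, nearer to them than the others. For the mitosis list the KAT6A-NCOA2 libraries lay between -0.97 and -0.81, and empty vector replicate 2 at -0.27. The mean levels overlapped between the groups for the lysosomal enzymes and the paired immune receptors, where empty vector replicate 2 reached the KAT6A-NCOA2 range.

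**Figure D2:**
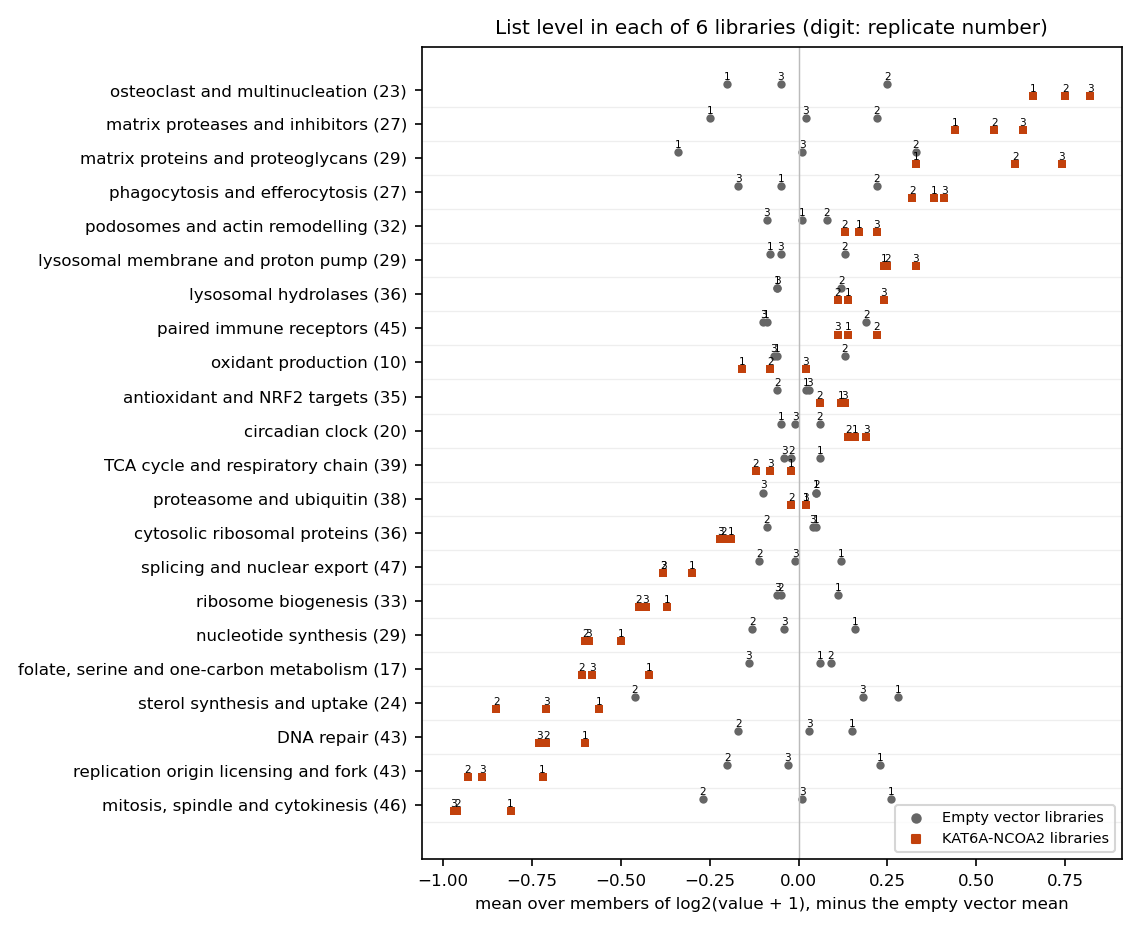
Mean over the tested members of log2(value + 1) in each library (x axis), minus the empty vector mean, for 22 gene lists (y axis). Digits give the replicate number, and for most lists empty vector replicate 2 lies on the side of the KAT6A-NCOA2 libraries.

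Several genes of secreted matrix proteins, of the proteases that cut them and of cell fusion into osteoclasts rose with KAT6A-NCOA2. Of 27 tested matrix proteases and inhibitors 14 rose and 2 fell (median log2 fold change 0.56, against 0.02 over all genes). Of 29 matrix proteins and proteoglycans 12 rose and 3 fell (median 0.49), and of 23 genes of osteoclasts and of multinucleated cells 16 rose and 1 fell (median 0.59). Spp1 encodes osteopontin, a secreted phosphoprotein of macrophages and bone, and lies on chromosome 5 (104435118 to 104441050). It stood at 90893, 367273 and 150935 normalized counts against 567955, 753306 and 712820 (log2 fold change 1.97, SE 0.53, adjusted p = 0.02). Spp1 had the largest rise in level of all genes, and its groups did not overlap although the empty vector libraries differed widely. Mmp12, the macrophage elastase gene on chromosome 9 (7344381 to 7369499), stood at 79392, 298145 and 142940 against 419540, 569522 and 510364 (1.72, SE 0.48, adjusted p = 0.024). Mmp13, a collagenase gene on the same chromosome (7272514 to 7283331), was 3.68-fold higher (adjusted p = 0.016). The gene of fibronectin, Fn1, was 5.61-fold higher (adjusted p = 0.017). For all of these genes empty vector replicate 2 was the highest of its group, and none of their groups overlapped.

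More even among the control libraries were Gpc1, Ocstamp and Ctsk. Gpc1, a cell surface heparan sulfate proteoglycan gene, stood at 591, 1255 and 981 normalized counts against 2558, 3081 and 3322 (1.72, SE 0.22, adjusted p = 0.0007). Ocstamp, needed in mice for fusion of osteoclast precursors and chosen here after its values were seen, stood at 44, 76.6 and 56.8 against 155, 217 and 205 (1.70, SE 0.22, adjusted p = 0.00074). Ctsk, the bone-degrading cathepsin K and also chosen after its values were seen, stood at 4476, 4193 and 3802 against 9392, 6652 and 7687 (0.92, SE 0.13, adjusted p = 0.001). The groups of these genes did not overlap. Dcstamp, the other fusion receptor of osteoclast precursors, stood at 14.3, 69.7 and 32 against 112, 167 and 165 (2.15, SE 0.49, adjusted p = 0.01). Postn, a matrix protein gene of the periosteum, was higher by 2.05 (SE 0.43, adjusted p = 0.0075). Genes that fell included Lama5, a laminin chain (-1.70, SE 0.23, adjusted p = 0.00088), and Mmp2, a gelatinase (-1.78, SE 0.36, adjusted p = 0.0062). Mmp2 stood at 88.9, 47.9 and 83.5 against 20.4, 22.1 and 17.5, opposite in direction to Mmp9, the other gelatinase gene, which rose from 7.65, 19.2 and 7.1 to 32.6, 46.3 and 59.6.

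Without the 4 libraries in turn (empty vector replicates 1 and 3, then KAT6A-NCOA2 replicates 2 and 3) the protease count that rose was 6, 8, 5 and 5, and the matrix protein count 5, 6, 6 and 5. The matrix proteins that fell were 1 without empty vector replicates 1 or 3 or KAT6A-NCOA2 replicate 2, and 6 with total-read scaling. The osteoclast count was 10 without KAT6A-NCOA2 replicate 2. Each of Spp1, Mmp12, Mmp13, Mmp9 and Fn1 lost the call without any 1 of these 4 libraries, at adjusted p from 0.054 to 0.11, while Gpc1, Postn, Dcstamp, Lama5 and Mmp2 kept it in all 6 such fits.

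**Figure D3:**
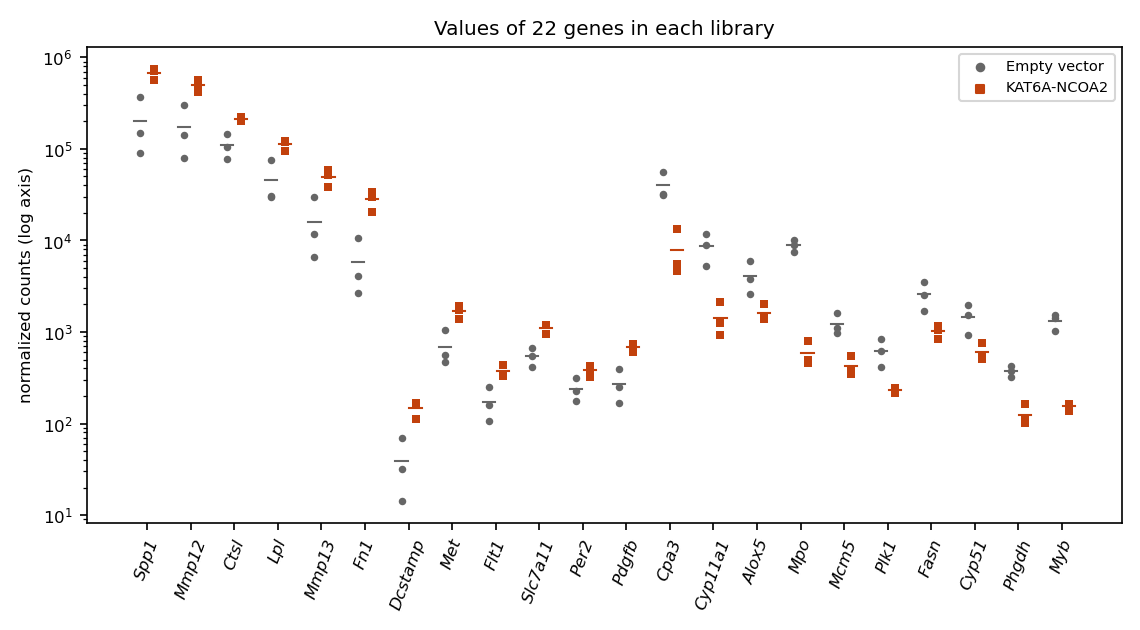
Normalized counts (log axis) in each library for 22 genes that passed the test (x axis), with short lines at the group means. Empty vector libraries are grey circles and KAT6A-NCOA2 libraries orange squares, and for the 12 genes on the left every KAT6A-NCOA2 library is higher, for the others every one is lower.

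Several genes for taking up dead cells and for actin structures at the cell surface rose. Of 27 tested phagocytosis genes 11 rose and Elmo1 fell (median 0.45), and of 32 genes of podosomes and actin remodelling 13 rose and 3 fell (median 0.27). Mfge8, which bridges dying cells to integrins, stood at 20557, 45367 and 23867 normalized counts against 55154, 55245 and 61707 (1.03, SE 0.26, adjusted p = 0.016). Cd14, the co-receptor for bacterial lipopolysaccharide, stood at 957, 1306 and 1020 against 1822, 2053 and 2037 (0.86, SE 0.13, adjusted p = 0.0016). Actn1, an actin cross-linker on chromosome 12 (80167547 to 80260371), stood at 2234, 3149 and 2404 against 4348, 4280 and 4527 (0.77, SE 0.11, adjusted p = 0.0012). All 3 KAT6A-NCOA2 libraries were above the empty vector range for these genes. Myo1e, a membrane-bound myosin, was higher by 0.86 (SE 0.17, adjusted p = 0.0051). Flna, an actin cross-linker of the cell cortex, rose by 0.63 (SE 0.15, adjusted p = 0.012). Elmo1, which helps to activate Rac during engulfment, was lower (-0.53, SE 0.08, adjusted p = 0.0016), whereas its partner Dock1, chosen after its values were seen, was among those that rose. The phagocytosis count that rose was 6, 7, 7 and 6 without the 4 libraries in turn, and Mfge8 lost the call in these fits (adjusted p from 0.05 to 0.067). The podosome count was 8 without empty vector replicate 3, 7 without KAT6A-NCOA2 replicate 3 and 8 with total-read scaling, where 6 members fell.

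Several genes of the lysosomal membrane and of the pump that acidifies it rose by small amounts. All 29 tested members of this list had a higher mean with KAT6A-NCOA2, 13 passed the test as higher and none as lower (median 0.26, and 0.07 with total-read scaling, where 5 rose). Tcirg1, a pump subunit that osteoclasts need to dissolve bone, stood at 5301, 6011 and 5786 normalized counts against 7445, 7838 and 7473 (0.41, SE 0.07, adjusted p = 0.0035). Atp6v1b2, another pump subunit, stood at 11865, 17343 and 11700 against 19302, 20938 and 21720 (0.62, SE 0.14, adjusted p = 0.011). Neither gene's groups overlapped. The enzymes inside the lysosome were mixed, with 5 of 36 higher and 3 lower, 1 higher and 4 lower with total-read scaling, and 10 higher with DESeq2. Ctsl, a cathepsin on chromosome 13 (64359337 to 64370890), was 1.99-fold higher at 77589, 146332 and 105740 against 200552, 211967 and 222273 (adjusted p = 0.018). Glb1, the beta-galactosidase of lysosomes, was lower at 12748, 9531 and 10162 against 6680, 5325 and 5679 (-0.87, SE 0.15, adjusted p = 0.0034), and Gaa and Arsb also fell. Of 30 autophagy genes 8 rose and none fell (median 0.15, but -0.04 with total-read scaling, where 2 rose and 4 fell). Among them were Gabarapl1, which coats autophagosomes (0.42, SE 0.06, adjusted p = 0.0012), and Bnip3l, which marks mitochondria for removal (0.60, SE 0.11, adjusted p = 0.0043). Tfeb, a transcription factor that activates lysosomal genes, stood at 576, 690 and 560 against 725, 829 and 830 (0.39, SE 0.10, adjusted p = 0.019), and its relatives Mitf, Tfec and Tfe3, chosen after their values were seen, also rose.

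Without the 4 libraries in turn the pump and membrane count was 4, 5, 4 and 4, the enzyme count that rose 0 in each and the autophagy count 3, 4, 4 and 3. Without KAT6A-NCOA2 replicate 1 the pump and membrane count was 8, and without empty vector replicate 2 the enzyme count was 12. Tcirg1, Atp6v1b2, Glb1, Gabarapl1 and Bnip3l kept their calls in all 6 such fits, and Ctsl and Tfeb lost theirs in the 4 fits named first (adjusted p from 0.054 to 0.083). The factors TFEB, TFE3 and MITF are known to bind the letters GTCACGTG. On either strand of RefSeq promoter windows (250 bases before to 50 after the gene start), these letters stood in 20% of 20 pump and membrane genes and 20% of 25 enzyme genes, against 4.23% of all 8016 tested genes with 1 window and 3.94% of those that rose. Before the gene start alone, they stood in 2 of 9 pump and membrane genes that rose, with 1 window, and in 0 of 3 such enzyme genes. Stretches from 2 genes that rose are shown for this motif, in capitals and written 5′ to 3′ on the strand of the gene, on RefSeq's GRCm38.p6. They are Mcoln1, a calcium channel of the lysosome (chr8:3500436-3500491, plus strand, higher by 0.24, adjusted p = 0.026), and the pump subunit Atp6v0b (chr4:117887350-117887377, minus strand, 0.21, adjusted p = 0.035), both chosen after their values were seen.
Mcoln1: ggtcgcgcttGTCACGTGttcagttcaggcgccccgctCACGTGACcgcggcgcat
Atp6v0b: gtgcgcggggGTCACGTGgggtcggcgc

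Most genes for making sterols fell, and genes of lipid droplets and fatty acid handling changed in both directions. Of 36 genes of the latter list 7 rose and 6 fell (median 0.01). Lpl, the lipoprotein lipase on chromosome 8 (68880491 to 68907448), stood at 29623, 75518 and 30768 normalized counts against 94921, 123284 and 117678 (1.44, SE 0.32, adjusted p = 0.0092). Plin2, a coat protein of lipid droplets, stood at 5814, 9367 and 5250 against 10990, 11156 and 10810 (0.74, SE 0.17, adjusted p = 0.012). The cholesterol exporter Abca1 also rose (0.64, SE 0.14, adjusted p = 0.0076). In the other direction, Fasn, the fatty acid synthase on chromosome 11 (120805846 to 120824547), stood at 3497, 1701 and 2534 against 1172, 832 and 1064 (-1.29, SE 0.21, adjusted p = 0.0025). Acaca, which makes its substrate, fell by 0.69 (SE 0.15, adjusted p = 0.0079), and Elovl6, which lengthens its product, from 470, 232 and 379 to 123, 101 and 85.3 (-1.75, SE 0.23, adjusted p = 0.00076). None of these groups overlapped. Of 24 genes of sterol synthesis and uptake 17 fell and Dhcr7 rose (median -0.62). Cyp51, a demethylase of lanosterol, stood at 1974, 928 and 1515 against 762, 508 and 548 (-1.24, SE 0.24, adjusted p = 0.0054). Empty vector replicate 2 was the lowest of its group for Fasn and Cyp51, still above the fusion libraries.

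Dhcr7, the last enzyme of cholesterol synthesis, went the other way at 1840, 1969 and 1764 against 2801, 2744 and 2977 (0.61, SE 0.11, adjusted p = 0.003). The sterol count that fell was 6, 6, 6 and 7 without the 4 libraries in turn. In the same fits 1, 3, 2 and 3 lipid handling genes rose, with 3 also for total-read scaling. The number that fell was 3 without empty vector replicates 1 and 3 and KAT6A-NCOA2 replicate 2, 10 without empty vector replicate 2 and 12 with total-read scaling. Plin2 lost the call without empty vector replicate 1 (adjusted p = 0.052). Promoters of sterol genes often hold the letters CCAAT, bound by the factor NF-Y, near a site for SREBP factors. CCAAT stood in 100% of the 14 sterol genes with 1 window and 39.1% of all genes, and TCACNCCA in 21.4% and 3.46%. Stretches of Srebf2, the sterol-sensing factor itself (chr15:82147097-82147148, plus strand, -0.57, adjusted p = 0.018), and of the sterol demethylase Msmo1 (chr8:64733619-64733765, minus strand, -0.51, adjusted p = 0.042) hold both motifs, in capitals on either strand. Both genes were chosen after their values were seen. Of 9 sterol genes that fell, with 1 window, 3 held both motifs before the gene start.
Srebf2: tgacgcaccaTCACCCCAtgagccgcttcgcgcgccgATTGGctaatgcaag
Msmo1: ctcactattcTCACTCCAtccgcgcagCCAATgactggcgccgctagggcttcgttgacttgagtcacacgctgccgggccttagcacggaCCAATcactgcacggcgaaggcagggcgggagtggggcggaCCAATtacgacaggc

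Genes for copying DNA, dividing cells and repairing DNA fell almost throughout. Of 43 genes of replication origins and forks 41 fell and none rose (median -0.87), of 46 genes of mitosis and cytokinesis 43 fell (median -0.96), and of 43 DNA repair genes 33 fell (median -0.68). Pole, the catalytic subunit of a leading strand polymerase on chromosome 5 (110286306 to 110337474), stood at 530, 312 and 457 normalized counts against 162, 128 and 134 (-1.58, SE 0.17, adjusted p = 0.00034). Cdc6, which loads the replicative helicase, stood at 300, 212 and 243 against 84.5, 86.2 and 87.7 (-1.52, SE 0.15, adjusted p = 0.00021), and Mcm5, a subunit of that helicase, was lower by a similar amount (-1.54, SE 0.20). Ect2, which starts the cleavage of dividing cells, had the largest fall of the mitosis genes, at 477, 313 and 393 against 111, 109 and 146 (-1.68, SE 0.17, adjusted p = 0.00022). The kinases Plk1 (-1.37, SE 0.21, adjusted p = 0.0016) and Aurkb (-1.31, SE 0.19, adjusted p = 0.0013) fell with it. Among repair genes, Fancb of the Fanconi anemia complex stood at 141, 87.1 and 109 against 33.6, 30.5 and 37.4 (-1.68, SE 0.19, adjusted p = 0.00039), and the checkpoint kinase Chek1 fell by 1.67 (SE 0.26, adjusted p = 0.0019). No groups overlapped, as the naming rule asks, and empty vector replicate 1 was the highest of its group for each. Between 39 and 45 mitosis genes and between 31 and 39 replication genes fell in the fits without 1 library, and 21 repair genes without empty vector replicate 1 or 3 or KAT6A-NCOA2 replicate 3.

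Genes of the nuclear envelope and of chromatin copying also moved. Of 40 genes of histones and chromatin assembly 23 fell and 4 rose (median -0.39). Lbr, the lamin B receptor (chromosome 1, 181815335 to 181843046), stood at 1785, 879 and 1235 normalized counts against 424, 272 and 270 (-1.98, SE 0.24, adjusted p = 0.00055), and Lmnb1, lamin B1, fell by 1.71 (SE 0.20, adjusted p = 0.00046). Lmna, the lamin of more mature cells, rose at 4859, 7318 and 5440 against 8702, 9032 and 9528 (0.65, SE 0.13, adjusted p = 0.0054). The histone genes Hist1h2bc and Hist1h1c rose, and since most histone transcripts lack a poly(A) tail, such values cover only the part that carries one. With total-read scaling 1 member rose, and these histone genes lost the call (adjusted p = 0.16 and 0.068). The number that rose was 2 without empty vector replicates 1 or 3 or KAT6A-NCOA2 replicates 2 or 3. Uhrf1, which brings the DNA methyltransferase to new strands, fell by 1.65 (SE 0.19, adjusted p = 0.00046).

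Promoters of cell cycle genes are known to carry E2F sites in genes of the G1/S step and CHR elements, often with CCAAT, in genes of mitosis. The searched E2F letters were TTCCCGCC, TTGGCGGG and TTTCCCGC, which overlap one another, and the CHR letters were TTTGAA, all on both strands. Any of the E2F motifs stood in 32.1% of 28 replication genes and 37.5% of 32 repair genes with 1 window, against 2.86% of 35 mitosis genes and 6.94% of all 8016 genes. The CHR letters stood in 71.4% of the mitosis genes and 14.3% of the replication genes, against 12.2% of all genes, 17% of those that fell and 9.89% of those that rose. CCAAT stood in 74.3% of the mitosis genes. Stretches of 4 genes that fell are printed with these motifs in capitals: Cdc6 (chr11:98908003-98908030, plus strand), the DNA primase subunit Prim1 (chr10:128015190-128015214, plus strand, -1.13, adjusted p = 0.0011), the spindle motor Kif11 (chr19:37376327-37376378, plus strand, -1.21, adjusted p = 0.00068) and the topoisomerase Top2a (chr11:99024197-99024426, minus strand, -1.25, adjusted p = 0.00035). The last 3 were chosen after their values were seen.
Cdc6: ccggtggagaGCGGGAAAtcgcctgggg
Prim1: gcctgtcttgTTCCCGCCAAttctc
Kif11: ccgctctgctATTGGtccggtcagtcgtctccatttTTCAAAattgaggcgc
Top2a: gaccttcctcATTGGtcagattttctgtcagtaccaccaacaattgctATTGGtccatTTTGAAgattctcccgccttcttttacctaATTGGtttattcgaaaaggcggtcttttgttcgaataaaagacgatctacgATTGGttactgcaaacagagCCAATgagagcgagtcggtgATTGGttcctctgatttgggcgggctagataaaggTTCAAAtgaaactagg
Cdc6 and Prim1 hold E2F letters and Kif11 and Top2a hold the CHR and CCAAT letters. Printed stretches were searched before the gene start only, unlike the shares above. There 3 of 26 replication genes that fell, with 1 window, held an E2F motif. Of 33 such mitosis genes 11 held both the CHR and the CCAAT letters. A match of letters describes the window only and does not show that a factor binds there.

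**Figure D4:**
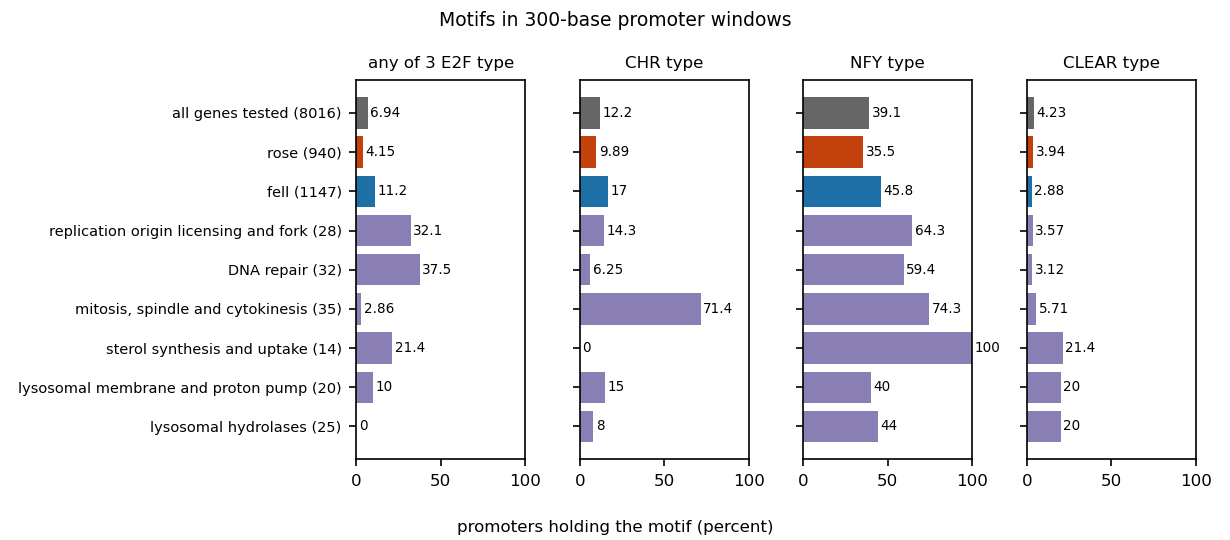
Percent of RefSeq promoter windows (x axis) that hold each motif type, for all tested genes with 1 window, genes that rose or fell, and 6 gene lists (y axis, number of windows in brackets). The CHR type reaches 71.4% in the mitosis list and the NFY type 100% in the sterol list.

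Genes that supply nucleotides, folate units and ribosomes fell as well, although the cytosolic ribosomal proteins themselves fell little. Of 29 nucleotide synthesis genes 19 fell and 2 rose (median -0.44), and of 17 genes of folate, serine and one-carbon metabolism 8 fell (median -0.58). Shmt1, a serine hydroxymethyltransferase on chromosome 11 (60788104 to 60811718), stood at 422, 268 and 364 normalized counts against 86.6, 69.4 and 73.6 (-2.17, SE 0.16, adjusted p = 5.5e-05). Phgdh, the first enzyme of serine synthesis, stood at 421, 377 and 323 against 163, 110 and 101 (-1.60, SE 0.17, adjusted p = 0.00028). Tyms, which makes thymidylate with a folate, fell by 1.64 (SE 0.17, adjusted p = 0.00028), and Cad, the first enzyme of pyrimidine synthesis, by 1.27 (SE 0.15, adjusted p = 0.00046). Of 33 ribosome biogenesis genes all had a lower mean and 22 fell (median -0.37), where 13.7% of all genes fell and the median over all genes was 0.02. Dkc1, a pseudouridine synthase, stood at 921, 646 and 728 against 333, 272 and 229 (-1.46, SE 0.15, adjusted p = 0.00024), and Nop58, a snoRNA protein, fell by 0.87 (SE 0.10, adjusted p = 0.00041). The groups of these genes did not overlap, and all 6 named here kept the call in every fit without 1 library.

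Of 36 cytosolic ribosomal protein genes 13 fell and none rose, and their median was -0.22. Rpl14 stood at 2490, 2378 and 2379 normalized counts against 1871, 1778 and 2069 (-0.34, SE 0.07, adjusted p = 0.0057). Leaving out empty vector replicates 1, 2 and 3 in turn gave counts of 1, 20 and 4, leaving out the KAT6A-NCOA2 replicates gave 4, 2 and 1, and the count was 8 with no filter on low values and 30 with total-read scaling. Ribosomal proteins have many processed copies in the genome, and how reads were split among them is not known. Of 47 genes of splicing and nuclear export 25 fell and Mbnl2 rose (median -0.27, and 41 fell with total-read scaling). Nup210, a nuclear pore protein, stood at 1538, 954 and 1301 against 327, 229 and 262 (-2.20, SE 0.17, adjusted p = 6.1e-05). The muscleblind-like splicing regulators moved in opposite directions, since Mbnl3 fell by 2.17 (SE 0.32, adjusted p = 0.0013) and Mbnl2 rose by 0.45 (SE 0.08, adjusted p = 0.0045). Of 22 chaperones 11 fell, including Hspd1 of mitochondria (-0.57, SE 0.08, adjusted p = 0.0012), and the co-chaperone Bag3 rose (0.56, SE 0.10, adjusted p = 0.004). With total-read scaling 18 chaperones fell. Srm, which makes spermidine, fell by 1.11 (SE 0.12, adjusted p = 0.00029), while Arg1, which splits arginine, rose by 0.82 (SE 0.20, adjusted p = 0.015) and lost the call without empty vector replicate 1 or KAT6A-NCOA2 replicate 2 (adjusted p = 0.061 and 0.067).

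Other housekeeping lists had fewer called members. Of 39 genes of the TCA cycle and respiratory chain 4 fell and none rose (median -0.07), and the number that fell was 22 with total-read scaling and 8 with the replicate number as a block. Idh3a, a subunit of isocitrate dehydrogenase, stood at 1159, 850 and 985 normalized counts against 696, 670 and 635 (-0.57, SE 0.11, adjusted p = 0.0041). Of 38 proteasome and ubiquitin genes 2 rose and 1 fell (median -0.04, with 21 lower under total-read scaling). Uchl1, a ubiquitin hydrolase best known from neurons, stood at 27.7, 43.5 and 16 against 83.5, 111 and 84.2 (1.74, SE 0.38, adjusted p = 0.0084). Of 28 genes of the unfolded protein response 3 rose, with 0 in each fit without 1 of the 4 libraries and 0 with total-read scaling, where 7 fell. Among 31 genes of glycolysis 7 rose and 5 fell (median 0.20), with 2 higher and 8 lower under total-read scaling. Slc2a1, the main glucose carrier, rose from 1757, 2434 and 1924 to 3029, 3880 and 4013 (0.84, SE 0.14, adjusted p = 0.0021), whereas Slc2a6, another carrier of this family, fell from 388, 170 and 234 to 112, 83 and 84.2 (-1.42, SE 0.25, adjusted p = 0.0032). Among 30 genes of the amino acid response and the tRNA synthetases 4 rose and 6 fell, with 2 that rose without any 1 of the 4 libraries, 10 without empty vector replicate 2, and 2 that rose and 14 that fell with total-read scaling. Vars, the valyl-tRNA synthetase, fell by 0.95 (SE 0.10, adjusted p = 0.00034). The glycolysis count was 3, 5, 4 and 2 for rises and 1, 2, 1 and 2 for falls without the 4 libraries in turn, and the respiratory count that fell was 2, 3, 1 and 2.

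Some genes of the oxidase that makes superoxide and of defence against oxidants rose, while Rac2 and the peroxidase of neutrophil granules fell. Of 10 oxidant genes 6 rose and 2 fell (median 0.43), and of 35 antioxidant genes and targets of NRF2 13 rose and 2 fell (median 0.19, and -0.00 with total-read scaling, where 6 rose and 9 fell). With Mpo far lower, the mean level of the oxidant list went the other way than its median, at -0.16, -0.08 and 0.02 in the KAT6A-NCOA2 libraries relative to the empty vector mean on the log2 scale. Hvcn1, a proton channel that keeps the oxidase running (chromosome 5, 122206804 to 122242297), stood at 1101, 1249 and 975 normalized counts against 1802, 1720 and 1879 (0.71, SE 0.09, adjusted p = 0.00064). Cybb, the catalytic oxidase subunit, rose by 0.69 (SE 0.17, adjusted p = 0.016) and lost the call without empty vector replicate 1 or KAT6A-NCOA2 replicates 2 or 3 (adjusted p from 0.057 to 0.067). Rac2, on the same oxidant list, fell from 7510, 5555 and 6073 to 4481, 4063 and 4389 (-0.55, SE 0.11, adjusted p = 0.0047). Its call was kept in every fit without 1 library. Mpo, the granule peroxidase, was lower in each fusion library, at 10077, 7575 and 8907 against 791, 498 and 463 (adjusted p = 4.4e-06), and moved with the neutrophil markers, among which it is counted. Slc7a11, the cystine carrier that feeds glutathione synthesis (chromosome 3, 49892526 to 50443614), stood at 418, 665 and 542 against 942, 1196 and 1185 (1.05, SE 0.16, adjusted p = 0.0014). Prdx1, a peroxiredoxin, stood at 6942, 10696 and 7752 against 15164, 16384 and 16180 (0.93, SE 0.15, adjusted p = 0.0018). Hmox1, the heme oxygenase, rose by 0.65 (SE 0.11, adjusted p = 0.0028). No library of these genes crossed into the range of the other group. Nfe2l2, which encodes NRF2 and was chosen after its values were seen, stood at 3596, 3742 and 3570 against 3917, 3930 and 4013 and did not pass the test (adjusted p = 0.21).

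Of 30 genes of heme, iron and metals 7 rose and 7 fell. Tfr2, a transferrin receptor of liver and red cell precursors, stood at 166, 126 and 193 normalized counts against 24.4, 25.2 and 21 (-2.71, SE 0.18, adjusted p = 3.2e-05). It fell beside 5 of 8 tested erythroid markers, among them Rhag (161, 165 and 259 against 15.3, 10.5 and 14) and Car1 (428, 306 and 709 against 42.8, 52.6 and 40.9), both chosen after their values were seen, and the part of erythroid cells was not tested. Lcn2, a siderophore-binding protein of neutrophil granules, fell from 419, 212 and 284 to 57, 33.6 and 38.6 (-2.77, SE 0.50, adjusted p = 0.0035). Mt2, a metallothionein, rose by 0.82 (SE 0.18, adjusted p = 0.0086). The oxidant count that rose was 2, 3 and 2 without empty vector replicates 1 and 3 and KAT6A-NCOA2 replicate 3, and the antioxidant count was 7, 7, 8 and 7 without the 4 libraries in turn. In the metal list 4 genes rose with total-read scaling or without KAT6A-NCOA2 replicate 2, and 4 fell without empty vector replicate 1 or KAT6A-NCOA2 replicates 2 or 3.

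Secreted signals changed in both directions. Of 52 cytokines, chemokines and growth factors 10 rose and 12 fell (median -0.03). Il1rn, the secreted antagonist of the IL-1 receptor (chromosome 2, 24336853 to 24351494), stood at 928, 2899 and 1426 normalized counts against 4432, 5645 and 5528 (1.72, SE 0.31, adjusted p = 0.0035). Pdgfb, a platelet-derived growth factor chain (chromosome 15, 79995874 to 80014977), stood at 168, 393 and 252 against 611, 733 and 695 (1.40, SE 0.26, adjusted p = 0.0043). Hbegf, a ligand of the EGF receptor, rose by 1.34 (SE 0.27, adjusted p = 0.0058). Il6 fell from 826, 278 and 651 to 209, 110 and 97 (-2.01, SE 0.38, adjusted p = 0.0044), in cells that were grown in added IL-6. Il4, a product of basophils and T cells chosen after its values were seen, stood at 81.2, 30.5 and 34.6 against 19.4, 11.6 and 14, beside the lower mast cell and basophil markers, and the part of these cells in its fall was not tested. The number that fell was 6 and 7 without empty vector replicate 1 and KAT6A-NCOA2 replicate 2, and 6 rose with total-read scaling.

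Receptors split in a similar way. Of 59 receptors for cytokines and growth factors 23 rose and 14 fell (median 0.25), with 11, 13, 10 and 10 higher without the 4 libraries in turn and 14 with total-read scaling. Met, the receptor of hepatocyte growth factor (chromosome 6, 17463800 to 17573980), stood at 555, 1043 and 469 normalized counts against 1381, 1924 and 1754 (1.37, SE 0.26, adjusted p = 0.0043). Flt1, a VEGF receptor of endothelium and macrophages, stood at 160, 251 and 107 against 440, 352 and 328 (1.19, SE 0.25, adjusted p = 0.0073). Il2ra, the alpha chain of the IL-2 receptor, fell from 5475, 2212 and 3192 to 978, 641 and 536 (-2.28, SE 0.34, adjusted p = 0.0015). Il1rl1, the IL-33 receptor of mast cells and basophils, fell by 2.33 (SE 0.27, adjusted p = 0.00048), and the part of the lower mast cell and basophil markers in this was not tested. Pdgfrb, the receptor for PDGF-B, stood at 107, 79.2 and 88.8 against 27.5, 15.8 and 15.2 (-2.22, SE 0.23, adjusted p = 0.00025), so that ligand and receptor moved in opposite directions. Every KAT6A-NCOA2 library lay outside the empty vector range for these genes. Csf1, a growth factor of macrophages chosen after its values were seen, stood at 3516, 4904 and 3779 against 5250, 6276 and 7319 (0.63, adjusted p = 0.01).

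In 36 genes of Wnt and Notch signalling 5 rose and 7 fell. Jag1, a Notch ligand, stood at 122, 342 and 222 normalized counts against 495, 742 and 753 (1.63, SE 0.32, adjusted p = 0.0053), and Fzd7, a Wnt receptor, rose by 0.91 (SE 0.15, adjusted p = 0.0026). Axin2, known as a target of Wnt signalling, fell at low levels from 62.1, 29.6 and 22.2 to 13.2, 8.41 and 10.5 (-1.62, SE 0.36, adjusted p = 0.0088). Nrarp, a Notch target at 42.1, 16.5 and 32 against 15.3, 10.5 and 2.34, lost the call without empty vector replicates 1 or 3 or KAT6A-NCOA2 replicates 2 or 3 (adjusted p from 0.064 to 0.14). In 34 genes of TGF-beta, BMP and activin signalling 7 rose and 2 fell, and Tgfbi, a matrix protein induced by TGF-beta, stood at 5338, 19937 and 9451 against 26335, 36180 and 37615 (1.72, SE 0.46, adjusted p = 0.022), and lost the call without any 1 of the 4 libraries (adjusted p from 0.066 to 0.085). Of 32 semaphorin, plexin, ephrin and netrin genes 7 rose and 4 fell, and the neuropilins Nrp1 (0.77, SE 0.16, adjusted p = 0.0075) and Nrp2 (0.76, SE 0.13, adjusted p = 0.0029) both rose. Without the 4 libraries in turn the count that rose was 3, 3, 4 and 3 for TGF-beta genes and 2, 4, 3 and 3 for semaphorin and ephrin genes, of which 0, 1, 0 and 1 fell. For Wnt and Notch genes 3 rose without empty vector replicate 1 or KAT6A-NCOA2 replicate 3 and 4 fell without empty vector replicates 1 or 3 or KAT6A-NCOA2 replicate 2. With total-read scaling 3 Wnt and Notch genes and 3 semaphorin and ephrin genes rose, and 7 TGF-beta genes fell.

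Surface receptors of myeloid cells that carry or pair with inhibitory and activating signals were often higher. Of 45 paired immune receptors 21 rose and 8 fell (median 0.48), and this count was 7, 11, 7 and 9 without the 4 libraries in turn and 11 with total-read scaling. The number that fell was 4 without empty vector replicate 1 or KAT6A-NCOA2 replicate 3. Clec4a2, a C-type lectin with an inhibitory motif, stood at 742, 1774 and 959 normalized counts against 2333, 3144 and 2678 (1.32, SE 0.30, adjusted p = 0.01). Cd200r3, an activating receptor of mast cells and basophils, fell from 3343, 1728 and 2019 to 1014, 472 and 385 (-1.99, SE 0.36, adjusted p = 0.0035), and Trem3 from 45.9, 44.4 and 30.2 to 12.2, 4.21 and 5.84 (-2.38, SE 0.33, adjusted p = 0.0011). Of 44 adhesion genes 16 rose and 10 fell. The collagen-binding integrin Itga1 stood at 146, 254 and 214 against 397, 497 and 549 (1.25, SE 0.24, adjusted p = 0.0051) and the protocadherin Pcdh7 at 209, 358 and 272 against 643, 847 and 808 (1.47, SE 0.23, adjusted p = 0.0017). Icam2, an adhesion molecule of leukocytes and endothelium, fell from 316, 233 and 254 to 110, 108 and 105 (-1.29, SE 0.13, adjusted p = 0.00021). No groups overlapped among these genes, and the part of mast cells and basophils in the fall of Cd200r3 was not tested. The adhesion count was 10 for rises without KAT6A-NCOA2 replicate 3 and 6, 6 and 5 for falls without empty vector replicate 1 and KAT6A-NCOA2 replicates 2 and 3. Of 20 complement genes 7 rose and Cd55, which protects cells from complement, fell from 11799, 6156 and 8926 to 3425, 2300 and 2190 (-1.74, SE 0.24, adjusted p = 0.00094).

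Of 22 tetraspanins 8 rose and 3 fell. Cd9, a tetraspanin that limits fusion of macrophages, stood at 9926, 12535 and 10646 normalized counts against 17904, 17356 and 17595 (0.68, SE 0.10, adjusted p = 0.0015), and Tspan13 fell by 0.77 (SE 0.13, adjusted p = 0.0023). The tetraspanin count that rose was 5 without empty vector replicate 1 or KAT6A-NCOA2 replicate 3 or with total-read scaling. Of 42 genes of pattern recognition and NF-kB 6 rose and 3 fell, where 11.6% of all tested genes rose and 13.7% fell. Among those that fell was Nfkb1, the p105 subunit, at 2785, 2536 and 2454 against 1916, 1926 and 1914 (-0.43, SE 0.07, adjusted p = 0.002). Of 26 antigen presentation genes 8 rose and 2 fell (median 0.45). Those that rose were mainly of the class II pathway, such as H2-DMa, which loads peptides (0.76, SE 0.16, adjusted p = 0.0067), while H2-Oa, which blocks that loading, fell from 228, 137 and 222 to 52, 53.6 and 40.9 (-1.95, SE 0.20, adjusted p = 0.00025). Without the 4 libraries in turn the count that rose was 3, 4, 3 and 3 for antigen presentation, 2, 3, 2 and 3 for pattern recognition and 3, 4, 3 and 4 for complement. Without empty vector replicate 2 it was 14 for both antigen presentation and pattern recognition. With total-read scaling it was 4, 3 and 4 in the same order, and 10 pattern recognition genes fell.

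Some enzymes of lipid mediators and sulfated sugars that mast cells are known to use fell, beside the lower summed level of mast cell and basophil markers. The part of those cells in these falls was not tested. Cyp11a1, the enzyme that starts steroid hormone synthesis (chromosome 9, 58006411 to 58027023), stood at 11729, 5291 and 8906 normalized counts against 2128, 1240 and 935 (-2.60, SE 0.34, adjusted p = 0.00076). Alox5, the first enzyme of leukotriene synthesis, stood at 5935, 2583 and 3763 against 2023, 1371 and 1413 (-1.29, SE 0.25, adjusted p = 0.0049). Of 32 eicosanoid genes 7 rose and 3 fell, and Anxa1, a regulator of phospholipase, rose from 13580, 25386 and 14789 to 31389, 36573 and 35578 (1.00, SE 0.21, adjusted p = 0.0064). Of 40 genes for heparan and chondroitin sulfate 6 rose and 10 fell. Hs6st2, a heparan sulfotransferase, stood at 841, 482 and 424 against 185, 89.4 and 94.7 (-2.25, SE 0.31, adjusted p = 0.00092), and Chst13, a chondroitin sulfotransferase, at 103, 47 and 60.4 against 6.11, 4.21 and 3.51. Chst3, another chondroitin sulfotransferase, rose from 8.6, 25.2 and 8.88 to 31.6, 53.6 and 58.4 (1.80, SE 0.40, adjusted p = 0.009). For each of these genes the groups were apart. The eicosanoid count that rose was 4 without KAT6A-NCOA2 replicate 2 or with total-read scaling, where 8 fell, and 6 fell with DESeq2 or the replicate block. The sulfation count that rose was 3, 3 and 2 without empty vector replicates 1 and 3 and KAT6A-NCOA2 replicate 3, and 10 without empty vector replicate 2.

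Of 34 sphingolipid genes 12 rose and 4 fell. Sphk1, which makes sphingosine 1-phosphate, stood at 822, 1127 and 1103 normalized counts against 1626, 2159 and 1983 (0.92, SE 0.14, adjusted p = 0.0013). Spns2, which exports it from endothelium, fell from 742, 733 and 808 to 399, 262 and 264 (-1.33, SE 0.14, adjusted p = 0.00029). Of its receptors, S1pr4 fell from 303, 106 and 190 to 48.9, 28.4 and 43.2 (-2.20, SE 0.34, adjusted p = 0.0018) and S1pr3 rose by 1.44 (SE 0.41, adjusted p = 0.027), a call lost without empty vector replicate 1 or KAT6A-NCOA2 replicates 2 or 3 (adjusted p from 0.065 to 0.1). The number of sphingolipid genes that rose was 5, 5 and 5 without those 3 libraries, and 7 with total-read scaling or without empty vector replicate 3.

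Channels, transporters and the machinery of vesicles changed gene by gene. Of 50 ion channel and calcium genes 16 rose and 5 fell, and 7 rose and 10 fell with total-read scaling. Cacna1d, a voltage-gated calcium channel subunit, stood at 287, 449 and 372 normalized counts against 717, 926 and 898 (1.21, SE 0.26, adjusted p = 0.0083), and Trpm2, an oxidant-sensitive channel, fell from 154, 98.4 and 127 to 43.8, 47.3 and 54.9 (-1.34, SE 0.18, adjusted p = 0.00086). Of 31 ABC transporters 8 rose and 6 fell. Abcc5, an exporter of cyclic nucleotides (chromosome 16, 20331303 to 20426394), was even within groups at 1665, 1768 and 1712 against 2431, 2732 and 2664 (0.60, SE 0.06, adjusted p = 0.00028). Of 53 genes of caveolae, coats and endocytosis 18 rose and 10 fell. Cav2, a caveolin, rose by 1.01 (SE 0.23, adjusted p = 0.011), and Rab44, a small GTPase of mast cell granules, fell from 4833, 3324 and 4615 to 1360, 1013 and 795 (-2.03, SE 0.20, adjusted p = 0.0002). Of 25 purine genes 5 rose and 5 fell, with 0, 1, 1 and 0 that rose without the 4 libraries in turn and 0 with total-read scaling, and among those that fell was Ada, adenosine deaminase, at 203, 120 and 146 against 49.9, 21 and 43.2 (-2.06, SE 0.29, adjusted p = 0.0011). Of 49 genes of G protein signalling 13 rose and 10 fell, with 5, 4, 2 and 3 that rose and 3, 4, 3 and 2 that fell without the 4 libraries in turn. In the same fits the count that rose was 7, 8, 8 and 9 for channels, 6, 9, 8 and 4 for vesicles and 3, 4, 3 and 2 for ABC transporters, of which 3, 3, 3 and 4 fell. With total-read scaling 6 G protein genes, 7 vesicle genes and 2 ABC transporters rose. The part of the lower mast cell markers in the fall of Rab44 was not tested.

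Transcription regulators outside the classical lineage factors changed in both directions, with 28 of 100 higher and 22 lower (median -0.02, and 12 and 34 with total-read scaling). Of the genes of handling and stress, Atf3 was 1.84-fold, Jun 1.43-fold and Dusp1 1.46-fold higher and Egr1 1.62-fold lower, and their part in changes of early response factors was not tested. Egr2, an early growth response factor of macrophages, stood at 684, 1209 and 912 normalized counts against 1601, 1968 and 2212 (1.07, SE 0.18, adjusted p = 0.0026). Batf3, a factor of dendritic cells, stood at 58.3, 82.7 and 70.2 against 144, 172 and 178 (1.22, SE 0.25, adjusted p = 0.0064). Etv4, an ETS factor, fell from 97.5, 35.7 and 80.8 to 9.17, 4.21 and 10.5 (-2.97, SE 0.44, adjusted p = 0.0013), and Mybl2, a MYB relative of dividing cells, by 1.97 (SE 0.28, adjusted p = 0.001). Pparg and Vdr, nuclear receptors chosen after their values were seen, rose by 0.55 (adjusted p = 0.021) and 0.81 (adjusted p = 0.02). None of these groups overlapped. Of 20 circadian clock genes 9 rose and Hlf fell (median 0.29). Npas2 stood at 676, 823 and 844 against 1201, 1125 and 1099 (0.55, SE 0.10, adjusted p = 0.0033), and Hlf, which also keeps stem cells quiescent, at 63.1, 46.1 and 52.4 against 20.4, 11.6 and 9.35 (-1.95, SE 0.28, adjusted p = 0.0012). The clock count was 3, 2, 3 and 2 without the 4 libraries in turn and 2 with total-read scaling, and the count of regulators that rose was 12, 14, 14 and 11.

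Of 51 genes of cell cycle inhibition, p53 and survival 10 rose and 5 fell. Bcl2, which blocks cell death at mitochondria (chromosome 1, 106538178 to 106714274), stood at 961, 753 and 853 normalized counts against 384, 362 and 354 (-1.21, SE 0.10, adjusted p = 0.00011). Ccnd2, a cyclin of early G1, fell from 2523, 1711 and 1724 to 998, 715 and 622 (-1.35, SE 0.18, adjusted p = 0.00078). Btg1, which restrains growth, rose by 0.56 (SE 0.11, adjusted p = 0.0047). The cell cycle inhibitor Cdkn1a, chosen after its values were seen, stood at 4068, 4881 and 4373 against 4457, 5129 and 4904 and did not pass the test (adjusted p = 0.52). Of 46 kinase and phosphatase feedback genes 12 rose and 7 fell. The sprouty genes, which restrain receptor kinases, split, as Spry2 rose by 0.58 (SE 0.13, adjusted p = 0.0085) and Spry4 fell from 46.8, 25.2 and 34.6 to 5.09, 9.46 and 7.01 (-2.15, SE 0.31, adjusted p = 0.0012). Socs1, an inhibitor of cytokine signalling, fell by 1.08 (SE 0.18, adjusted p = 0.0026). The feedback count that rose was 6, 5 and 6 without empty vector replicate 1 and KAT6A-NCOA2 replicates 2 and 3, and 4 rose and 17 fell with total-read scaling. Without the 4 libraries in turn the survival count that rose was 5, 6, 5 and 4, and with total-read scaling 4 rose and 13 fell.

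Some genes were near the limit of detection with KAT6A-NCOA2. Their values are a description, since such a gene can enter the test through the group in which it is high. Epx, the eosinophil peroxidase, had 116 recovered reads over the 3 empty vector libraries and 2 over the KAT6A-NCOA2 libraries. Fbp1, the fructose bisphosphatase of gluconeogenesis, had 38 and 2 reads. Rnase12, of the ribonuclease A family, had 132 reads and 1 read. No fold is given for these genes, since it would rest on the few reads of 1 group. Ltf, Trbv12-2 and 6030419C18Rik also had 3 reads or fewer over the KAT6A-NCOA2 libraries.

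A direct test against the 3 ETV6-NCOA2 libraries shows where the KAT6A-NCOA2 libraries stood apart from the other fusion as well. In it 425 of 13750 genes differed (3.09%), 34 higher (0.247%) and 391 lower (2.84%) with KAT6A-NCOA2. The replicate numbers were taken as pairs for these groups from the data, and no label says what a number marks. With the replicate number as a block over all 9 libraries 983 differed, 251 higher and 732 lower. Phgdh was lower than with ETV6-NCOA2 (277, 261 and 278 normalized counts there, log2 difference -1.15, SE 0.17, adjusted p = 0.0055), and so was Pdgfrb (115, 138 and 126, -2.68, SE 0.23, adjusted p = 0.00032). Myb, a factor of progenitors, stood at 1418, 1020 and 1546 with empty vector, 561, 606 and 558 with ETV6-NCOA2 and 162, 162 and 137 with KAT6A-NCOA2 (-1.90 between the fusions, SE 0.14, adjusted p = 0.00017). Hvcn1 was higher than with ETV6-NCOA2 (1291, 1243 and 1340, 0.48, SE 0.09, adjusted p = 0.016), as was Slc36a2, a proton-coupled amino acid carrier (245, 355 and 414, 0.92, adjusted p = 0.032). The median log2 difference between the fusions was 0.28 for matrix proteases, 0.25 for matrix proteins, 0.15 for phagocytosis genes, -0.08 for sterol genes and -0.45 for mitosis genes. Of 43 replication genes 9 were lower than with ETV6-NCOA2, and the blocked count was 19. This count was 1, 1 and 3 without ETV6-NCOA2 replicates 1, 2 and 3, and 12, 0 and 1 without KAT6A-NCOA2 replicates 1, 2 and 3.

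Several interferon-stimulated genes were lower with KAT6A-NCOA2 than with ETV6-NCOA2, though fewer passed the test against empty vector, and the difference between these counts was not tested. Against empty vector 3 of 45 rose and 4 fell (median -0.31), where 11.6% of all tested genes rose and 13.7% fell. Against ETV6-NCOA2 15 were lower and none higher, with a blocked count of 25, where 2.84% of all tested genes were lower. Their summed level was 66080, 60368 and 50314 normalized counts with empty vector, 40113, 42544 and 41683 with KAT6A-NCOA2 and 91403, 54621 and 60232 with ETV6-NCOA2. The fusion groups did not overlap in this sum, and ETV6-NCOA2 replicate 1 was the highest. Ifitm1, a membrane protein that limits virus entry, stood at 4884, 3326 and 5013, at 1178, 878 and 818 and at 3422, 3138 and 2594 in these groups (-2.19 against empty vector, SE 0.18, adjusted p = 8e-05, and -1.68 against ETV6-NCOA2, SE 0.18, adjusted p = 0.0011). Ly6e, another interferon-induced surface protein, fell from 25692, 18640 and 18022 to 8706, 8419 and 8375 (-1.27, SE 0.25, adjusted p = 0.0055). It was the most abundant of the 45 genes, with a mean difference of -12284 normalized counts between KAT6A-NCOA2 and empty vector. The sums above therefore follow Ly6e more than the list as a whole. The count of 15 was 7, 9 and 9 without ETV6-NCOA2 replicates 1, 2 and 3, and 5, 3 and 2 without KAT6A-NCOA2 replicates 1, 2 and 3. Against empty vector 11 fell without empty vector replicate 3, whose summed level was the lowest of its group, and 14 fell with total-read scaling.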

How the data were processed

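Polyadenylated RNA of 9 libraries was sequenced. The authors deposited one table of normalized counts per gene (treated here as signal values, not as raw counts). Cutadapt, STAR 2.4.2a, HTSeq, DESeq2 and the build GRCm38 are named per the submitters' processing notes, which give no order or settings. In each library the values were whole multiples of 1 fitted number, for 100% of values within 0.01 normalized counts, and the reads recovered in this way served only for depth and alternatives. Whether counting used strand is not given in the sources used here, and genes that share reads with close copies or overlapping genes are uncertain. No depth interval is given for levels, since the reads carry no molecular identifiers and such intervals would cover counting error only.

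Genes that reached 10 in 3 or more of 9 libraries were tested with limma 3.58.1 (R 4.3.3, empirical Bayes with trend) on log2(value + 1), with 1 coefficient per group and all 9 libraries sharing the estimate of spread. Fold changes are on this scale, which understates those of low genes. P-values were adjusted by Benjamini-Hochberg over all 13750 genes, and genes below 0.05 were called. Limma was the main test because the values are not raw counts.

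The members and the lists were chosen with earlier results of these data known. There were 57 function and 11 marker lists (2060 genes of the table, 1982 tested, 101 in more than 1 list), matched by exact symbol, and they held 899 of the 3488 called genes. Genes were named by rule: up to 3 risen and 3 fallen members per function list with the largest change and no overlap between groups, the 15 largest changes each way above the median level, the 10 largest each way in normalized counts, and called genes with 3 reads or fewer over 1 group. Some genes that the rule picks are not reported here. Coordinates came from GENCODE M21 (GRCm38) for 97% of symbols, and promoter windows from RefSeq (GRCm38.p6), with exactly 1 window for 58.3% of tested genes.

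Alternatives were pseudocounts of 0.1 and 10, no filter and a filter of 50, scaling by TMM factors or by total reads, limma-voom, edgeR 4.0.16 and DESeq2 1.42.0 on recovered reads, fits on the 6 libraries of a comparison, a replicate block, and each library left out. The fit was tested on simulated data. Same-numbered ETV6-NCOA2 and KAT6A-NCOA2 libraries deviated together (correlations of 0.301, 0.199 and 0.295 across genes), so those numbers were taken as pairs from the data, while labels do not say what a number marks. For empty vector and KAT6A-NCOA2 the correlations were 0.387, 0.172 and -0.029, and those numbers were not taken as pairs. The replicate block was fitted over all 9 libraries, the empty vector libraries included.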

Additional observations from a re-analysis of the deposited data

How the results depend on the processing

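Against empty vector, 3488 genes changed, and without 1 library between 1779 and 4320 did, with 631 to 2170 higher and 1148 to 2150 lower. Scaling by total reads gave 666 higher and 4059 lower. The other settings gave between 3227 and 3618 genes, apart from the replicate block with 4137 (1982 higher and 2155 lower), for numbers not taken as pairs in these groups. Of the 300 named genes, 34 lost the call with total-read scaling, 10 with only the 6 libraries, and none changed sign under these or the other settings. These genes were picked from the same libraries, mostly for large changes, and do not stand for all changed genes.

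Against ETV6-NCOA2, 425 genes differed, and without 1 library between 163 and 421 did, with 4 to 24 higher and 159 to 408 lower. The replicate block, for numbers taken as pairs in these groups from the data, gave 983 (251 higher and 732 lower). DESeq2 gave 793 (160 and 633), only the 6 libraries 823 (201 and 622) and total-read scaling 771 (13 and 758), while limma-voom found 259 lower. The cause of these moves was not tested. With 3 libraries a group, genes with few reads are limited by counting error, and a gene that missed the threshold is not shown to be alike.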

Other observations

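Several of the largest changes were in genes outside the described functions. Slc36a2, the amino acid carrier, stood at 242, 243 and 208 normalized counts with empty vector and 798, 596 and 517 with KAT6A-NCOA2 (log2 fold change 1.44, SE 0.20, adjusted p = 0.00094). Clmp, an adhesion molecule of tight junctions, stood at 163, 300 and 188 against 669, 621 and 680 (1.64, SE 0.23, adjusted p = 0.0011), and Igf2bp2, an RNA-binding protein, at 308, 799 and 399 against 1028, 1433 and 1467 (1.48, SE 0.29, adjusted p = 0.0052). Gzmb, granzyme B of cytotoxic and mast cells, fell from 10171, 4716 and 10488 to 1026, 599 and 699 (-3.40, SE 0.41, adjusted p = 0.00056). Cpa3, the mast cell carboxypeptidase and a marker of these cells, fell from 56566, 31064 and 32102 to 13501, 5593 and 4621. Plac8 fell from 2200, 1172 and 1808 to 162, 104 and 106 (-3.77, SE 0.26, adjusted p = 3.9e-05) and Scin, an actin-severing protein, from 2647, 1137 and 2486 to 393, 212 and 202 (-2.93, SE 0.33, adjusted p = 0.00037). The groups did not overlap for any of these 7 genes, and the part of mast cells and basophils in these falls was not tested.

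Genes called as higher were more often abundant ones, with a median level of 10.02 on the log2 scale against 8.19 for those called as lower. How far the chance of a call itself depends on level was not tested. In 4 equal groups by mean level, from lowest to highest, 3.84%, 7.59%, 11.6% and 23.4% of genes rose, and 12.1%, 18.5%, 13.9% and 10.4% fell. By chromosome, the share that rose lay between 9.14% (chromosome 17) and 14.2% (chromosome 6).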
